A study of Mus musculus with 17 samples.

Results

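Of the 22859 genes in the combined count table, 52 encode receptors for cytokines or for ligands of the tumour necrosis factor (TNF) family. They were chosen by gene symbol alone. Symbols beginning as an interleukin receptor chain were taken (Il, digits, r, then a, b, g, d, l or a digit). So were those of interferon receptors (Ifnar, Ifngr, Ifnlr) and TNF receptor superfamily genes (Tnfrsf), together with Il6st, Lifr and Osmr. Receptors whose symbols have none of these after the r, such as Il7r and Il21r, fall outside this rule. RNA was sequenced from macrophages sorted from the synovium, the lining tissue of the joint, of mice labelled Fcgr2b-KO. Fcgr2b encodes the inhibitory Fc receptor for IgG, and every group, the controls included, carried this label. The macrophages were sorted into 3 subsets, named by their surface markers as LYVE1+CX3CR1+ (gated as MHCII- and Ly6C-), MHCII+CD11c- and MHCII+CD11c+. Each subset was taken from control mice and from mice 8 h after intravenous immune complexes (IC), which per the study's methods were ovalbumin bound by rabbit antibody. There were 3 libraries for each of the 6 groups, except 2 for MHCII+CD11c+ after IC, giving 17 libraries made from 5 ng of RNA each. For a plot of such sorted subsets the study gives several mice per point, which may concern other libraries, so each library here may hold pooled mice. The p-values measure the spread between libraries, which may be technical in part.

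Cytokine receptors are assembled from chains that bind the ligand and chains that pass the signal on, and many chains are shared. Receptors of the IL-1 family signal through a Toll-like domain and the adaptor MyD88, receptors of the type I and type II cytokine families through Janus kinases and STAT factors, and TNF receptors through TRAF adaptors or a death domain. Macrophages of the joint lining are equipped with many of these receptors, and antibodies against TNF, IL-6 and IL-1 or their receptors are used to treat arthritis.

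The libraries held 2301913 to 7248939 counts, of which the 52 receptor genes took 0.239% to 0.400%. Between 25 and 49 of the 52 genes had more than 3 counts in a library. The 25 belonged to LYVE1+CX3CR1+ IC replicate 3, the shallowest group being LYVE1+CX3CR1+ after IC, where the 3 libraries had 33, 37 and 25 such genes. Fcgr2b itself had reads in all 17 libraries, at 69.3 to 248 counts per 1000000 counts of the library (CPM, with library sizes scaled by the TMM method). A gene-level count does not show which exons were read and there was no library of another genotype here, so this does not check the label. The sorted subsets did match their gates: Itgax (CD11c) stood at 0.541 to 2.20 CPM in LYVE1+CX3CR1+ controls, 8.48 to 16 in MHCII+CD11c- controls, with 275 to 434 for MHCII+CD11c+ controls. The summed level of the LYVE1-side markers was 3550 to 4380 CPM in LYVE1+CX3CR1+ controls, 988 to 1720 in MHCII+CD11c- controls, with 57.5 to 581 for MHCII+CD11c+ controls, the 581 being replicate 2. The summed level of 6 macrophage markers was 5340 to 7410 CPM in LYVE1+CX3CR1+ controls, 4820 to 6370 in MHCII+CD11c- controls, with 1430 to 2240 for MHCII+CD11c+ controls.

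Promoter sequences of 5 receptors are shown here. Of these, 3 are from the IL-1 receptor cluster on chromosome 1 that differed between the subsets. The others are Tnfrsf11a and Il2rg, which were called higher after IC on average over the subsets. Each is the 250 bases before a RefSeq transcription start in GRCm38.p6, written 5′ to 3′ along the gene. Capitals mark matches, on either strand, to a PU.1 core (AGGAAG), an AP-1 site (TGANTCA), a STAT site (TTCNNNGAA) or a glucocorticoid receptor site (ACANNNTGT). Il1r2 lies at chr1:40085843-40086092 (plus strand), Il1rl1 at chr1:40429320-40429569 (plus), Il18rap at chr1:40515112-40515361 (plus), Tnfrsf11a at chr1:105780473-105780722 (plus) and Il2rg at chrX:101268256-101268505 (minus). The Il1r2 window starts inside the longer Il1r2 gene of the GENCODE annotation.
Il1r2: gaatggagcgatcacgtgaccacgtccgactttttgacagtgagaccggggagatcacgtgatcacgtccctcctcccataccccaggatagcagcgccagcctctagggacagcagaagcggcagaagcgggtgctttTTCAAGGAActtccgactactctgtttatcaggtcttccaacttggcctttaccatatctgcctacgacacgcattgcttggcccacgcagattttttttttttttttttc
Il1rl1: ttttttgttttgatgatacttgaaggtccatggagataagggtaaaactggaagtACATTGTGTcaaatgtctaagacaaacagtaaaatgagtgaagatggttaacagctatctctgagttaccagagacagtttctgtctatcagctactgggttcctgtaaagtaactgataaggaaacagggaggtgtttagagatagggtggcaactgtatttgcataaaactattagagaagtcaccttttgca
Il18rap: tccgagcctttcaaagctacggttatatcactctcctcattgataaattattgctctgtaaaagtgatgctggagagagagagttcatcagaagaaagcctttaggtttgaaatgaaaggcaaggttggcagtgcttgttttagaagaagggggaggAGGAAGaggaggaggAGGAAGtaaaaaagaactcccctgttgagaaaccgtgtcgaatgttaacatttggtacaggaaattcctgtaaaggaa
Tnfrsf11a: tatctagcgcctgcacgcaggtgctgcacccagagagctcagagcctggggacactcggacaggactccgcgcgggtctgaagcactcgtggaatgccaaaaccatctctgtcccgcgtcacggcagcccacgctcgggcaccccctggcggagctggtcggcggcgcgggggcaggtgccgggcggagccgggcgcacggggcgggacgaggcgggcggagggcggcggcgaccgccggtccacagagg
Il2rg: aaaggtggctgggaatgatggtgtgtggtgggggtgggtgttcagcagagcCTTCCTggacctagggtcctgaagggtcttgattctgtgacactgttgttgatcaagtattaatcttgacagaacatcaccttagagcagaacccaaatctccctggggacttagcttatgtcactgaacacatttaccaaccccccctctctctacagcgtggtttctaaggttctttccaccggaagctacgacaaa
Il1r2 held 1 STAT match, Il1rl1 1 glucocorticoid receptor match, Il18rap 2 PU.1 cores and Il2rg 1 PU.1 core on the other strand, and Tnfrsf11a held none of the 4 motifs. RefSeq gave a promoter for 43 of the 52 genes, in 53 windows. The PU.1 core was present in 35.8% of these windows against 29.5% of all 32851 mouse windows, and the STAT motif in 18.9% against 7.02%. Among the 6 genes of the cluster, 2 held a PU.1 core, 2 a STAT match and 1 a glucocorticoid receptor match. The other motifs were in 7.55% (AP-1) and 1.89% (glucocorticoid receptor) of the receptor windows, against 6.75% and 5.84% of all windows. These are letter matches, and no binding was measured.

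The receptors were counted to very different depths. Averaged over all libraries, 12 of the 52 exceeded 100 CPM, 17 lay between 10 and 100, 14 between 1 and 10, and 9 below 1. Scaled by exon length so that genes can be compared, the same 5 receptors led in each of the 3 control subsets: Il10ra (the ligand-binding chain for IL-10), Ifngr1 (for interferon gamma), both TNF receptors Tnfrsf1a and Tnfrsf1b, and Il4ra (for IL-4 and IL-13). In LYVE1+CX3CR1+ controls Il10ra stood first at 102 ± 7.67 CPM per kb (SD, n = 3), above Ifngr1 at 70.4 ± 4.10 by more than their spread. Tnfrsf1a (65.1 ± 15.5), Tnfrsf1b (58.1 ± 12.8) and Il4ra (51.2 ± 9.32) followed, each within the spread of its neighbour. In MHCII+CD11c- controls the order was Il10ra (88.7 ± 1.65 CPM per kb), Tnfrsf1a (77.5 ± 19.2), Tnfrsf1b (66.9 ± 10.6), Ifngr1 (65.5 ± 1.14) and Il4ra (59.7 ± 14.5), with no gap between neighbours wider than their SDs. In MHCII+CD11c+ controls Ifngr1 (75.3 ± 11.8 CPM per kb) and Il10ra (72.5 ± 9.29) did not differ beyond their spread and lay above Tnfrsf1a (53.2 ± 9.98), Tnfrsf1b (51.6 ± 11.7) and Il4ra (34.9 ± 6.57). At the other end, Osmr, the oncostatin M receptor, had 0.0462 ± 0.0530 CPM per kb in LYVE1+CX3CR1+ controls, while its chromosome 15 neighbour Lifr, the LIF receptor, had 24.1 ± 4.41.

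**Figure D1:**
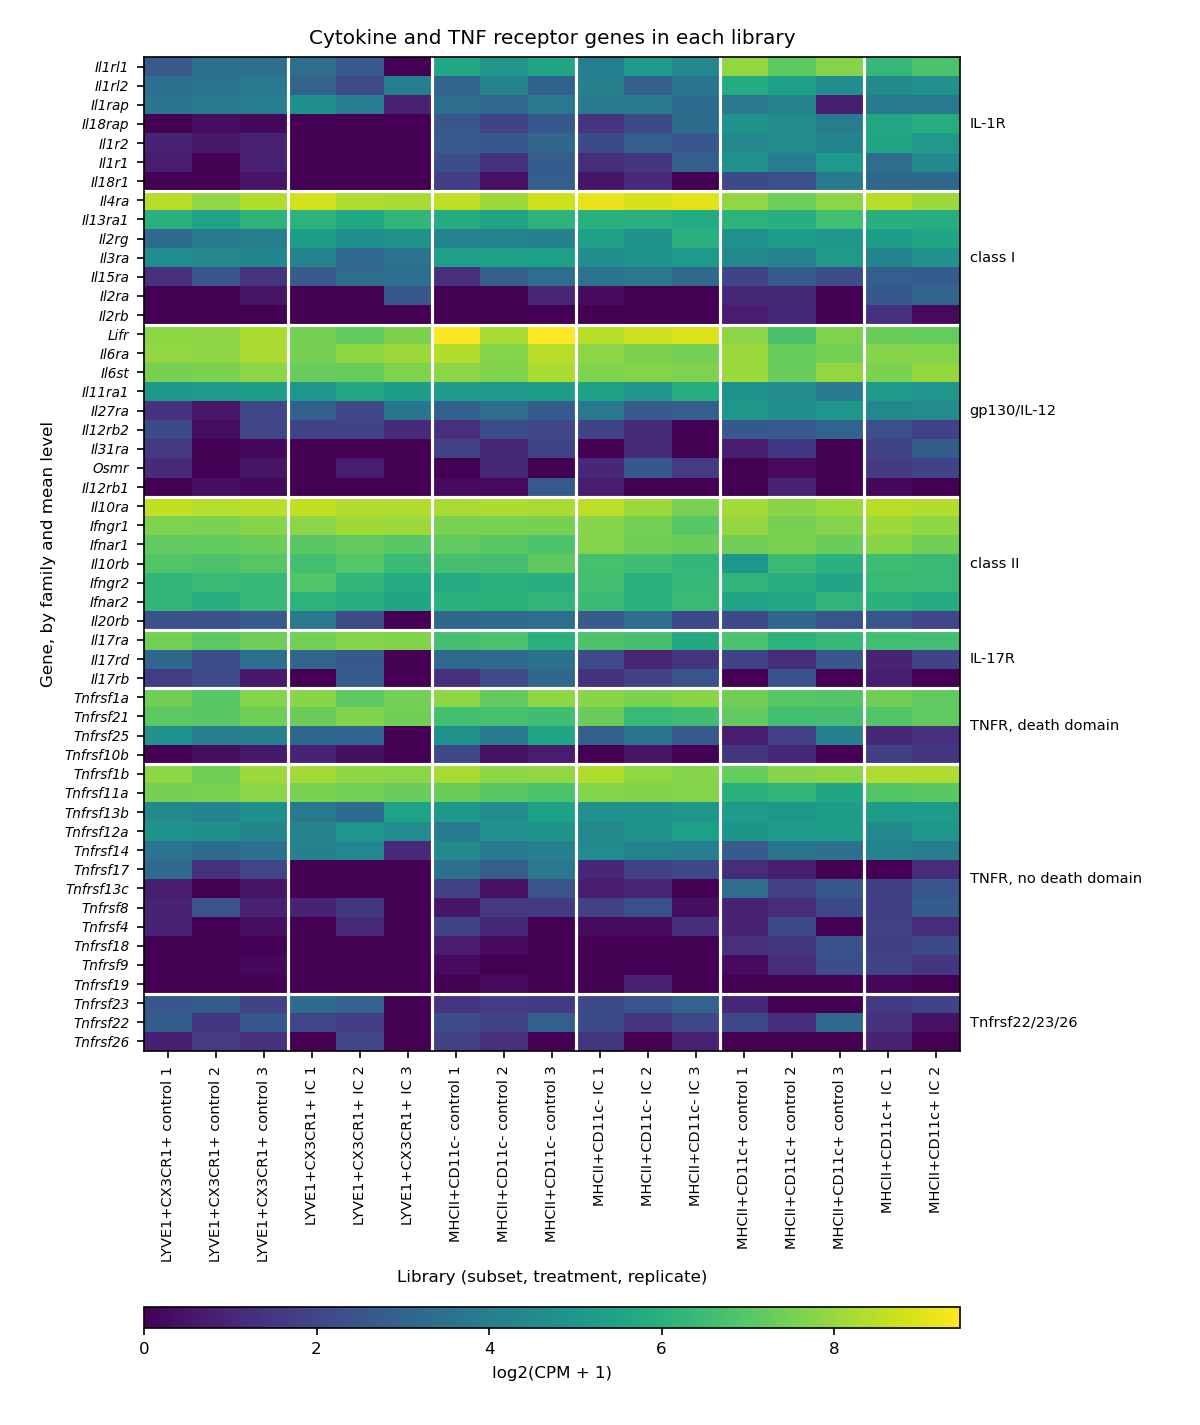
Heat map of the 52 receptor genes (rows, grouped by family) in the 17 libraries (columns, grouped by subset and treatment), coloured by log2(CPM + 1). The rows of the IL-1 receptor cluster brighten from the LYVE1+CX3CR1+ libraries to the MHCII+CD11c+ libraries, while the rows of the 5 leading receptors are bright in all columns.

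In control mice, the family with the most receptors that differed between subsets was the IL-1 receptor family. Of its 7 genes 6, Il1r2, Il1r1, Il1rl2, Il1rl1, Il18r1 and Il18rap, were lower in LYVE1+CX3CR1+ macrophages when set against the MHCII+CD11c+ ones, and 5 of the 7 separated the MHCII+ subsets, all higher with CD11c. Over all receptors, 12 of the 49 that passed the filter on low counts differed between LYVE1+CX3CR1+ and MHCII+CD11c+ at an adjusted p under 0.05, 3 higher and 9 lower, where 15.2% of the 15272 genes tested did (7.83% higher and 7.4% lower). Between MHCII+CD11c+ and MHCII+CD11c- it was 10 of 49, 6 higher and 4 lower, against 8.66% of all genes (3.67% and 4.99%). Between LYVE1+CX3CR1+ and MHCII+CD11c- it was 2 of 49, both lower, against 1.56% (1.22% lower). The median log2 difference of the 7 IL-1 receptor genes was -4.65 for LYVE1+CX3CR1+ against MHCII+CD11c+, where the median of the 49 receptors was -0.10, and it was 1.89 for MHCII+CD11c+ against MHCII+CD11c-, where that of the 49 was -0.09. The libraries of 26, 23 and 16 receptors did not overlap between LYVE1+CX3CR1+ and MHCII+CD11c+, between the MHCII+ subsets, and between LYVE1+CX3CR1+ and MHCII+CD11c-, against 37.7%, 27.4% and 21.6% of all genes. These 3 comparisons share their libraries in pairs and are not independent of each other.

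The 6 genes that differed are neighbours. In GRCm38 they occupy 478 kb of chromosome 1, chr1:40074079-40551705, all on the plus strand, in the order Il1r2, Il1r1, Il1rl2, Il1rl1, Il18r1 and Il18rap, and Il18r1 starts 0.136 kb after Il1rl1 ends. The seventh gene of the family, Il1rap, is on chromosome 16 (chr16:26581704-26730117).

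Il1rl1 encodes ST2, the receptor for IL-33. It stood at 5.20, 10 and 10 CPM in the LYVE1+CX3CR1+ control libraries, at 48.2, 29.3 and 47.5 in MHCII+CD11c- and at 244, 134 and 214 in MHCII+CD11c+. The 3 subsets did not overlap. LYVE1+CX3CR1+ was 23.5-fold lower than MHCII+CD11c+ (log2 -4.56 ± 0.59 SE, adjusted p = 6.33e-05), MHCII+CD11c+ was 4.75-fold higher than MHCII+CD11c- (2.25 ± 0.52, adjusted p = 0.0132), and the step from MHCII+CD11c- to LYVE1+CX3CR1+ did not pass the threshold (-2.31 ± 0.55, adjusted p = 0.0515).

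Il1r2 encodes the decoy receptor, which binds IL-1 without signalling, and Il1r1 the receptor that signals. Il1r2 had 0.945, 0.541 and 0.837 CPM in LYVE1+CX3CR1+, 5.55, 4.95 and 7.69 in MHCII+CD11c-, with 20.2, 23 and 18.5 for MHCII+CD11c+ controls, again without overlap. The LYVE1+CX3CR1+ level was 25.1-fold under that of MHCII+CD11c+ (-4.65 ± 0.59, adjusted p = 7.53e-06), 7.34-fold under that of MHCII+CD11c- (-2.88 ± 0.57, adjusted p = 0.00989), and MHCII+CD11c+ was 3.42-fold above MHCII+CD11c- (1.77 ± 0.50, adjusted p = 0.0270). The last of these calls was kept in 14 of 24 alternatives and was lost without the filter on low counts (0.0621), at equal depth (0.0761), with surrogate variables (0.0799) and with the replicate block (0.0504). Il1r1 had 0.630, 0 and 0.837 CPM, then 3.84, 1.59 and 5.68, then 26.8, 15.6 and 33.7 in the same order of subsets. All 3 ranges were separate, with a 44.7-fold difference between LYVE1+CX3CR1+ and MHCII+CD11c+ (-5.48 ± 0.92, adjusted p = 0.000177) and a 6.92-fold difference between the MHCII+ subsets (2.79 ± 0.79, adjusted p = 0.0273). The step between LYVE1+CX3CR1+ and MHCII+CD11c- did not pass the threshold for Il1r1 (-2.69 ± 0.88, adjusted p = 0.167).

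Il18r1 and Il18rap encode the 2 chains of the IL-18 receptor, which are better known from T cells and NK cells. Il18rap had 0, 0.270 and 0.140 CPM in LYVE1+CX3CR1+ controls, 4.91, 2.65 and 5.02 in MHCII+CD11c-, with 27.2, 22.7 and 14.7 for MHCII+CD11c+. The LYVE1+CX3CR1+ libraries held 2 Il18rap counts in all against 289 in MHCII+CD11c+, a ratio of 195 after scaling for depth (95% exact counting interval 53.6 to 1620), and 53 in MHCII+CD11c-, a ratio of 34.2 (9.01 to 290). The adjusted p was 2.71e-06 for the first difference, 0.00446 for the second and 0.0125 for MHCII+CD11c+ over MHCII+CD11c- (5.19-fold, 2.38 ± 0.59). Il18r1 had 0, 0 and 0.419 CPM in LYVE1+CX3CR1+, 2.35, 0.353 and 6.35 in MHCII+CD11c-, with 3.40, 3.90 and 13.6 for MHCII+CD11c+, so that the MHCII+ subsets overlapped. Its ratio of MHCII+CD11c+ over LYVE1+CX3CR1+ was 32.9 (73 against 3 counts, interval 10.8 to 163, adjusted p = 0.0155). Counting intervals cover counting error only, since reads without molecular identifiers are not independent molecules.

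Il1rl2, the IL-36 receptor, was high in MHCII+CD11c+ only. It had 10.1, 11.4 and 12.8 CPM in LYVE1+CX3CR1+ controls and 7.04, 18.4 and 6.69 in MHCII+CD11c-, which overlapped, and 56.2, 40.1 and 24.2 in MHCII+CD11c+, above both. The difference was 3.52-fold against LYVE1+CX3CR1+ (-1.82 ± 0.51, adjusted p = 0.0157) and 3.71-fold against MHCII+CD11c- (1.89 ± 0.51, adjusted p = 0.0203). Il1rap, the accessory chain that Il1r1, Il1rl1 and Il1rl2 share, had 12.1, 14.1 and 15.5 CPM, then 9.81, 8.48 and 12.7, then 12.5, 17.6 and 0.756, with overlap between the subsets (LYVE1+CX3CR1+ against MHCII+CD11c+ 0.40 ± 0.75, adjusted p = 0.805). MHCII+CD11c+ control replicate 3 stood far below the Il1rap values of the other control libraries. A similar level, 0.83 CPM, was read in LYVE1+CX3CR1+ IC replicate 3.

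**Figure D2:**
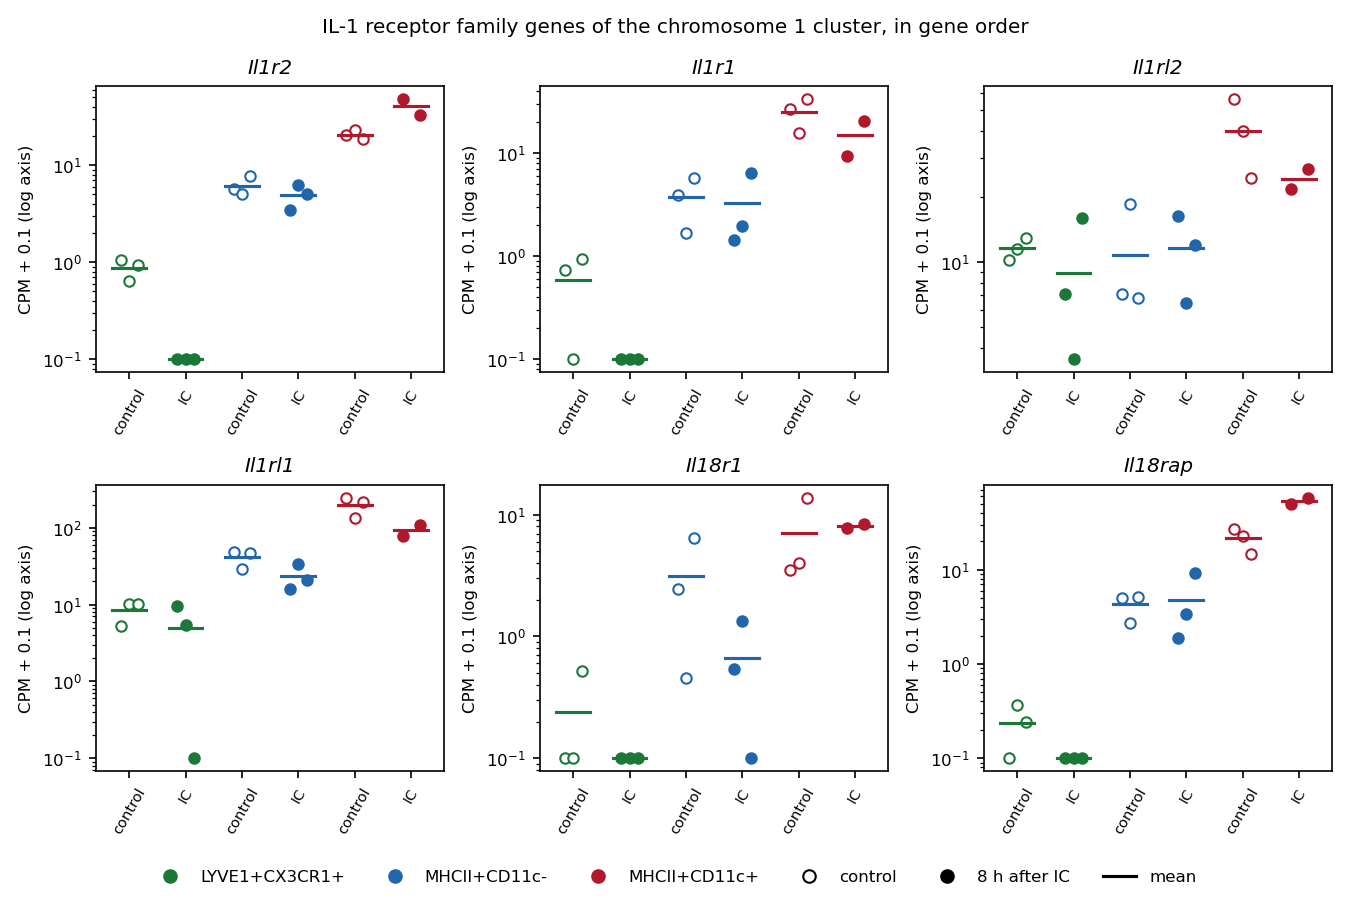
Level of the 6 genes of the IL-1 receptor cluster in each library (points), as CPM + 0.1 on a log axis, by subset (colours) and treatment (open for control, filled for IC), with the group mean as a line. In controls Il1r2, Il1r1, Il1rl1 and Il18rap step up from LYVE1+CX3CR1+ to MHCII+CD11c- to MHCII+CD11c+ without overlap.

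Other transcripts near the cluster were examined after these values were seen. Within 500 kb on either side the table held 13 further genes, of which 8 were tested and 4 were lower in the LYVE1+CX3CR1+ controls relative to MHCII+CD11c+. Slc9a4, a sodium-proton exchanger next to Il18rap, had mean levels of 1.59 (LYVE1+CX3CR1+), 12.2 (MHCII+CD11c-) and 59.4 CPM (MHCII+CD11c+) in controls (-5.40 ± 0.58 between the first and the last, adjusted p = 4.09e-07), the same order as the receptors. Gm37347 and Gm38070 are unclassified transcripts inside Il1r2 and Il1r1 on the same strand, and reads there may not be separable from those genes. Rnf149 lay 1.34 ± 0.25 lower on the log2 scale (adjusted p = 0.000396). Map4k4, on the far side of Il1r2, had a difference of -0.07 ± 0.18 (adjusted p = 0.865).

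Markers of other cell types moved with the same subsets. All 6 dendritic cell markers were in the table, and their sum was 11.4 to 14.9 CPM in LYVE1+CX3CR1+ controls, where Ccr7 was at 0, 24.6 to 91.6 in MHCII+CD11c-, with 119 to 244 for MHCII+CD11c+. The 4 monocyte markers summed to 18.9 to 38.5, 232 to 509 and 565 to 1170 CPM, mostly from Ccr2. The 5 neutrophil markers summed to 0.541 to 8.09, 13 to 135 and 61.5 to 229 CPM. Their part in the receptor differences was not tested, and in bulk RNA more cells of a type and more RNA per cell cannot be told apart. The sum of the neutrophil list was 0.550 to 1.76 CPM in the MHCII+CD11c+ libraries after IC, and there Il1r2 stood at 48.0 and 32.8 CPM. Any relation between these values was not tested. The T and NK cell markers, only 2 of 6 being in the table, summed to at most 4.33 CPM in any library. The 4 mast cell and basophil markers summed to at most 5.68 CPM in any control library, with 2 of the 4 at 0 in MHCII+CD11c+ controls. The 3 markers of type 2 innate lymphoid cells, which like mast cells carry ST2, summed to 52.7 to 57.2, 18.3 to 41.8 and 41.5 to 63.0 CPM in the control subsets, in the same order. The members of that list ran in opposite directions: Rora stood at 52.5 to 56.7 CPM in LYVE1+CX3CR1+ and 4.25 to 18.6 in MHCII+CD11c+ controls, Il7r at 0.140 to 0.472 and 34.8 to 44, higher where Il1rl1 was higher, and Gata3 at no more than 0.372 in any control library. The fibroblast list ran from 8.70 to 206 CPM and the endothelial list from 1.08 to 19.1 over the control libraries.

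The subsets were also compared after IC, a comparison chosen after the control values were seen. The group means of the IL-1 receptor cluster genes rose from LYVE1+CX3CR1+ to MHCII+CD11c- to MHCII+CD11c+, though not every step was called. Il1r2, Il1r1, Il18r1 and Il18rap had no count in any of the 3 LYVE1+CX3CR1+ IC libraries. Il1r2 had 3.33, 6.18 and 4.95 CPM in MHCII+CD11c-, with 48.0 and 32.8 for MHCII+CD11c+ after IC, at least 14.6-fold and at least 124-fold above LYVE1+CX3CR1+ (adjusted p = 0.000224 and 4e-07), taking 3 counts over the group as the floor. Il18rap had 1.77, 3.30 and 9.08 CPM and then 49.8 and 57.4, at least 13.2-fold and at least 160-fold (adjusted p = 0.00133 and 1.36e-06). For Il1r1, with 1.33, 1.85 and 6.33 CPM and then 9.40 and 20.7, the bounds were at least 8.78-fold and at least 43.3-fold (adjusted p = 0.0112 and 0.000243), the first lost without MHCII+CD11c- IC replicate 3 (0.0588). These groups did not overlap.

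Il1rl1 remained detectable in LYVE1+CX3CR1+ after IC, at 9.36, 5.35 and 0 CPM, against 16, 33.4 and 20.6 in MHCII+CD11c- (-2.17 ± 0.60, adjusted p = 0.0479) and 77.0 and 109 in MHCII+CD11c+ (-4.16 ± 0.64, adjusted p = 0.000489). The mast cell and basophil markers, whose cells also carry ST2, summed in these libraries to 0 to 5.85, 0 to 21, and 6.02 to 25.7 CPM in the same order of subsets, and their part was not tested. Il18r1, at 7.64 and 8.25 CPM in MHCII+CD11c+, was at least 23.7-fold above LYVE1+CX3CR1+ (adjusted p = 0.00999). Il1rl2 was called in no comparison after IC. It had 7.02, 3.46 and 15.8 CPM in LYVE1+CX3CR1+, 16.2, 6.39 and 11.8 in MHCII+CD11c-, with 21.6 and 26.6 for MHCII+CD11c+. Il1r1, Il1rl1 and Il18r1 were not called between the MHCII+ subsets after IC. Between the MHCII+ subsets Il1r2 (3.06 ± 0.55, adjusted p = 0.00158) and Il18rap (3.52 ± 0.64, adjusted p = 0.00179) were higher in MHCII+CD11c+, Il1r2 no longer without MHCII+CD11c+ IC replicate 1 (0.0647). Over all receptors, the counts after IC were 6 of 49 for LYVE1+CX3CR1+ against MHCII+CD11c- (1 higher and 5 lower, against 5.54% of all genes, 0.746% higher and 4.79% lower), 7 of 49 against MHCII+CD11c+ (1 higher and 6 lower, against 11.9%, 3.52% higher and 8.42% lower) and 3 of 49 for MHCII+CD11c+ against MHCII+CD11c- (2 higher and 1 lower, against 4.03%, 2.29% higher and 1.75% lower). The libraries of 14, 22 and 24 receptors did not overlap in these comparisons, against 21.9%, 40.9% and 36.6% of all genes. The Il1rl1 difference between LYVE1+CX3CR1+ and MHCII+CD11c- after IC was the least stable, kept in 9 of 24 alternative fits, and its adjusted p reached 0.162 without MHCII+CD11c- IC replicate 2.

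Another group of receptors had their lowest control mean in MHCII+CD11c+, though not all of them in the reverse order of the IL-1 receptor genes. Tnfrsf11a encodes RANK, the receptor for RANK ligand through which macrophage precursors become osteoclasts (chr1:105780718-105847981). It had 182, 185 and 225 CPM in LYVE1+CX3CR1+ controls, 161, 132 and 109 in MHCII+CD11c-, with 63.0, 72.4 and 45.8 for MHCII+CD11c+. No library of one subset reached the range of another. LYVE1+CX3CR1+ was 3.25-fold above MHCII+CD11c+ (1.70 ± 0.19, adjusted p = 9.55e-07) and MHCII+CD11c+ 2.22-fold below MHCII+CD11c- (-1.15 ± 0.19, adjusted p = 0.000306). Both calls were kept in all 24 alternative fits. The 3 osteoclast markers in the table summed to 17.3 to 28.1 CPM in LYVE1+CX3CR1+ controls, 6.69 to 15 in MHCII+CD11c-, with 6.59 to 27.5 for MHCII+CD11c+, and their part was not tested.

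Lifr, which binds leukaemia inhibitory factor together with gp130, was highest in MHCII+CD11c- (chr15:7090614-7197489). It had 229, 235 and 314 CPM in LYVE1+CX3CR1+ controls, 672, 300 and 703 in MHCII+CD11c-, with 226, 107 and 198 for MHCII+CD11c+. MHCII+CD11c- exceeded MHCII+CD11c+ 3.16-fold without overlap (-1.66 ± 0.29, adjusted p = 0.000847), whereas its replicate 2 fell within the LYVE1+CX3CR1+ range (-1.10 ± 0.28, adjusted p = 0.0564). After IC the order held, at 177, 146 and 192 CPM in LYVE1+CX3CR1+, 343, 424 and 484 in MHCII+CD11c-, with 159 and 150 for MHCII+CD11c+ (-1.28 ± 0.29, adjusted p = 0.0105, and -1.43 ± 0.33, adjusted p = 0.0147, against MHCII+CD11c-). The first of these was lost without LYVE1+CX3CR1+ IC replicate 2 (adjusted p = 0.0544) or MHCII+CD11c- IC replicate 3 (0.0542), and the second without MHCII+CD11c+ IC replicate 1 (0.143) or 2 (0.289) or MHCII+CD11c- IC replicate 3 (0.0582). Its partner Il6st (gp130) had 199 ± 21.1, 244 ± 52.2 and 221 ± 57.3 CPM (SD, n = 3) in the control subsets, in the same order, and no difference passed the threshold.

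Il10rb, the chain that the IL-10 and IL-22 receptors share, had 122, 111 and 125 CPM in LYVE1+CX3CR1+ controls, 99.8, 101 and 137 in MHCII+CD11c-, with 32.3, 86.0 and 64.7 for MHCII+CD11c+. MHCII+CD11c+ lay below both, 1.95-fold under LYVE1+CX3CR1+ (0.96 ± 0.26, adjusted p = 0.0104) and 1.84-fold under MHCII+CD11c- (-0.88 ± 0.26, adjusted p = 0.0305), and both calls were lost without MHCII+CD11c+ control replicate 1 (adjusted p = 0.0669 and 0.158). The first was also lost without LYVE1+CX3CR1+ control replicate 3 (0.0531), and the second without MHCII+CD11c- control replicate 1 (0.0630) or 3 (0.177) or MHCII+CD11c+ control replicate 3 (0.0710). Surrogate variables ended both (0.0638 and 0.25), and equal depth the second (0.0582). Ifnar2, Ifnar1 and Ifngr2, its neighbours on chromosome 16, showed no called difference between control subsets.

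Il4ra (chr7:125552120-125579474) had 371, 266 and 438 CPM in MHCII+CD11c- controls, with 241, 165 and 222 for MHCII+CD11c+, a 1.71-fold difference (-0.77 ± 0.21, adjusted p = 0.0189) with separate ranges, and 349, 244 and 328 in LYVE1+CX3CR1+ (0.55 ± 0.21 over MHCII+CD11c+, adjusted p = 0.0755). Its call was lost without MHCII+CD11c- control replicate 1 (adjusted p = 0.0881) or 3 (0.143) or MHCII+CD11c+ control replicate 2 (0.0804), and with surrogate variables (-0.54, adjusted p = 0.183). Il17ra, the signalling receptor for IL-17A (chr6:120463247-120487559), was highest in LYVE1+CX3CR1+ controls, at 174, 135 and 166 CPM against 108, 68.9 and 79.0 in MHCII+CD11c+ (1.86-fold, 0.89 ± 0.25, adjusted p = 0.0136) and 102, 108 and 62.5 in MHCII+CD11c- (0.80 ± 0.25, adjusted p = 0.123). LYVE1+CX3CR1+ exceeded both MHCII+ subsets in every library. The Il17ra call was lost without LYVE1+CX3CR1+ control replicate 1 (0.0770) or 3 (0.0620) or MHCII+CD11c+ control replicate 2 (0.0596) or 3 (0.0591). After IC Il17ra stood at 175, 207 and 204 CPM in LYVE1+CX3CR1+, 112, 99.7 and 53.1 in MHCII+CD11c-, with 95.9 and 99.1 for MHCII+CD11c+ (1.14 ± 0.25, adjusted p = 0.00631, and 1 ± 0.28, adjusted p = 0.0208), the second lost without either MHCII+CD11c+ IC library (0.144 and 0.149).

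**Figure D3:**
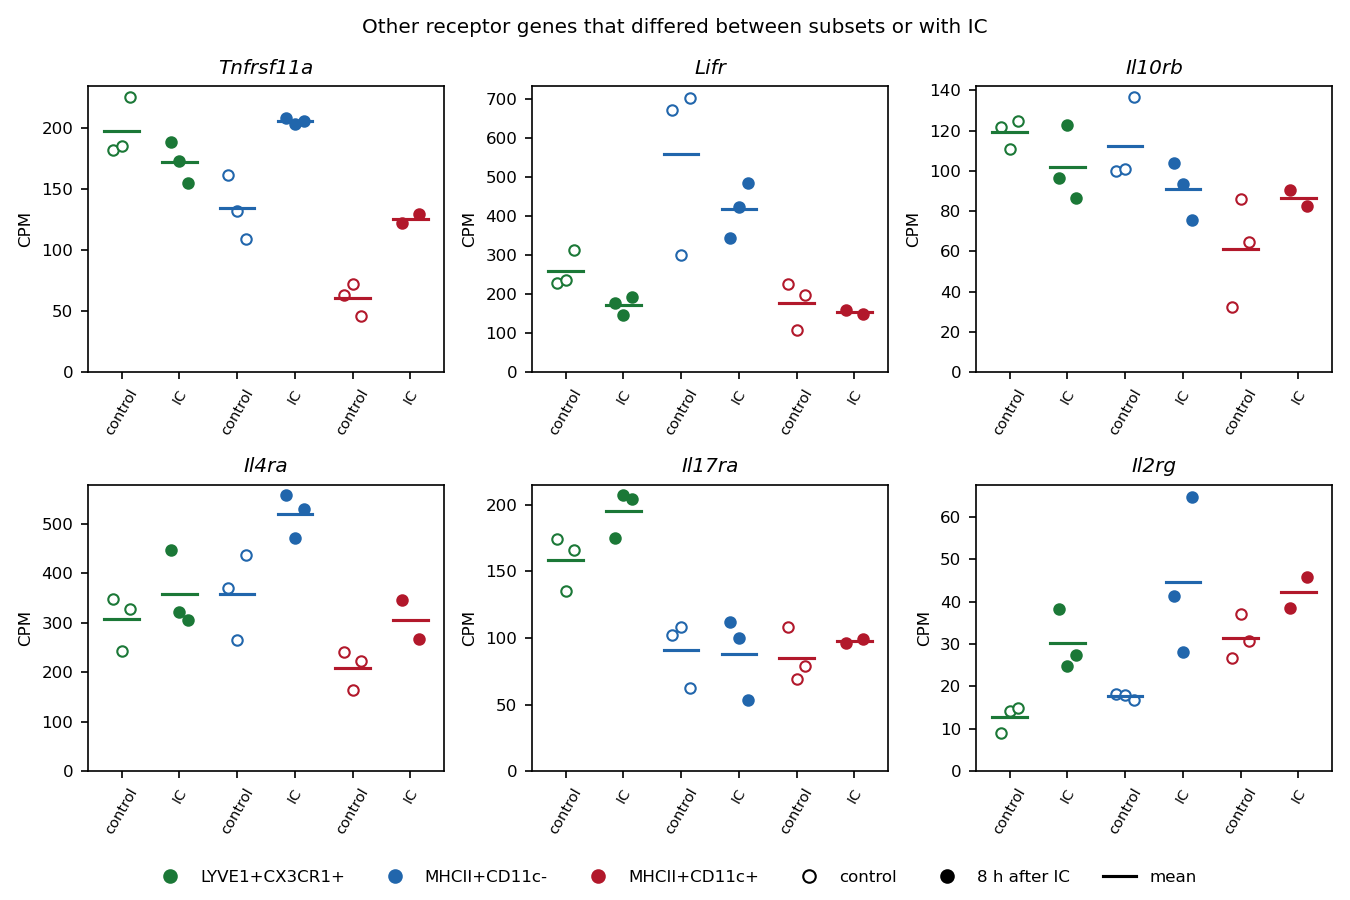
Level in CPM of receptors outside the IL-1 family in each library (points), by subset and treatment, with the group mean as a line. Tnfrsf11a in controls falls from 182 to 225 CPM in LYVE1+CX3CR1+ to 45.8 to 72.4 in MHCII+CD11c+, and Lifr is highest in MHCII+CD11c-.

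Among type I receptor chains, Il27ra and Il2rg were higher in MHCII+CD11c+ controls. Il27ra, which pairs with gp130 to bind IL-27 (chr8:84030294-84042589, minus strand), had 1.57, 0.541 and 3.07 CPM in LYVE1+CX3CR1+, 6.61, 9.54 and 5.68 in MHCII+CD11c-, with 31.1, 23.6 and 31.0 for MHCII+CD11c+. The ranges were separate, with a 15.5-fold difference between the first and the last (-3.95 ± 0.62, adjusted p = 5.91e-05) and a 3.88-fold one between the MHCII+ subsets (1.96 ± 0.56, adjusted p = 0.0267). Il2rg, the common gamma chain of the receptors for IL-2, IL-4, IL-7, IL-15 and IL-21 (chrX:101264378-101268255, minus strand), had 8.98, 14.3 and 14.8 CPM in LYVE1+CX3CR1+ and 26.8, 37.0 and 30.6 in MHCII+CD11c+ (2.48-fold, -1.31 ± 0.33, adjusted p = 0.00769), lost without LYVE1+CX3CR1+ control replicate 1 (adjusted p = 0.0538). Among TNF receptors, Tnfrsf18 (GITR) passed the filter on low counts only through MHCII+CD11c+ libraries, with at most 3 counts in any other library. It had no count in LYVE1+CX3CR1+ controls, and 1.49, 1.67 and 4.16 CPM in MHCII+CD11c+ controls. The latter level was at least 12.2-fold higher (27 counts in all, adjusted p = 0.0300), a call not independent of that filter. This call was lost without any 1 of the 3 LYVE1+CX3CR1+ control libraries (adjusted p = 0.105, 0.0780 and 0.112), MHCII+CD11c+ control replicate 3 (0.0716) or either MHCII+CD11c+ IC library (0.0537 and 0.0563), and it was also lost with surrogate variables (adjusted p = 1) and with the replicate block (0.0535). Tnfrsf13c, the BAFF receptor, had 0.630, 0 and 0.419 CPM in LYVE1+CX3CR1+ controls and 9.36, 2.60 and 4.92 in MHCII+CD11c+ (adjusted p = 0.0587). After IC it had no count in LYVE1+CX3CR1+ and 2.50 and 4.58 CPM in MHCII+CD11c+, at least 10.3-fold higher (adjusted p = 0.0271), a call lost without any 1 of these 5 libraries (adjusted p = 0.0507 to 0.134), at equal depth (0.0601) and with the replicate block (0.0588).

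Leaving out 1 library also ended several calls in the IL-1 family and for Il27ra. For LYVE1+CX3CR1+ against MHCII+CD11c+ controls, Il18r1 was lost without LYVE1+CX3CR1+ control replicate 1 (adjusted p = 0.0802) or 2 (0.0682) or MHCII+CD11c+ control replicate 3 (0.0694), and Il1rl2 without MHCII+CD11c+ control replicate 1 (0.0970) or LYVE1+CX3CR1+ control replicate 1 (0.0662) or 2 (0.0558). For LYVE1+CX3CR1+ against MHCII+CD11c-, Il1r2 was lost without LYVE1+CX3CR1+ control replicate 2 (0.0542) or 3 (0.0609). Between the MHCII+ controls, MHCII+CD11c- control replicate 1 decided Il1r1 (0.0954), Il1r2 (0.0998), Il1rl2 (0.103) and Il27ra (0.0989), and MHCII+CD11c+ control replicate 1 the same 4 genes (0.0838, 0.0688, 0.117 and 0.0838) and Il18rap (0.0573). MHCII+CD11c- control replicate 2 decided Il18rap (0.0537), Il1r1 (0.0980) and Il1r2 (0.0883), its replicate 3 Il1rl2 (0.1) and Il27ra (0.102), MHCII+CD11c+ control replicate 2 Il1r2 (0.0696), its replicate 3 Il1r1 (0.104) and Il27ra (0.0715), and either MHCII+CD11c+ IC library Il1r2 (0.0951 and 0.0725). Among other settings, surrogate variables ended Il18rap (0.0515) and Il27ra (0.0556) between the MHCII+ controls, and equal depth ended Il1r1 there (0.0852), Il18r1 for LYVE1+CX3CR1+ against MHCII+CD11c+ (0.0903) and Il1r2 for LYVE1+CX3CR1+ against MHCII+CD11c- (0.139). Of the 12 calls between LYVE1+CX3CR1+ and MHCII+CD11c+ controls, 6 were kept in all 24 alternatives: Il18rap, Il1r1, Il1r2, Il1rl1, Il27ra and Tnfrsf11a. Of the 10 between the MHCII+ controls, 3 were kept throughout: Il1rl1, Lifr and Tnfrsf11a.

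Of the 12 receptors at 100 CPM or more on average, Il4ra, Lifr, Tnfrsf11a and Il17ra differed between control subsets as given above. The others had no called difference. Il10ra stood at 358 ± 26.8, 310 ± 5.77 and 254 ± 32.5 CPM (SD, n = 3), again with LYVE1+CX3CR1+ first and MHCII+CD11c+ last. Ifngr1 stood at 201 ± 11.7, 187 ± 3.25 and 214 ± 33.5, and Ifnar1, the interferon alpha receptor, at 146 ± 8.39, 128 ± 14.6 and 170 ± 15.3. Tnfrsf1a and Tnfrsf1b, Il6ra (the IL-6 receptor) and Tnfrsf21 (a death receptor) likewise had no called difference between control subsets. Neither did Il13ra1, which is not among the 12 and lay between 10 and 100 CPM on average. Missing the threshold does not show that these levels were equal. The 3 receptors too low to test were Il12rb1 with 29 counts over all libraries, Il2rb with 20 and Tnfrsf19 with 6.

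The second question was how the receptors changed 8 h after IC. No receptor passed the threshold in LYVE1+CX3CR1+ (0 of 49, against 0.963% of all genes, and 7 of 49 at an unadjusted p under 0.05) or in MHCII+CD11c- (0 of 49, against 0.701%, and again 7 unadjusted), by edgeR's quasi-likelihood test. DESeq2 called 3 in the first and 1 in the second, Il2rg in both. In MHCII+CD11c+ 1 rose, Tnfrsf11a, against 0.216% of all genes. Averaged over the 3 subsets, 2 of 49 rose, Il2rg and Tnfrsf11a, and none fell, against 3.35% of all genes (1.7% higher and 1.65% lower). The median log2 change of the 49 receptors was -0.10 for LYVE1+CX3CR1+, -0.19 for MHCII+CD11c- and 0.20 for MHCII+CD11c+, beside medians of -0.14, -0.03 and 0.01 over all genes. The control and IC libraries of 10, 11 and 19 receptors did not overlap in the same order of subsets, against 21.6%, 17.2% and 23.1% of all genes. Markers of the subsets moved with IC as well: the LYVE1-side sum was 5560 to 6520 CPM in LYVE1+CX3CR1+ after IC against 3550 to 4380 in controls, and 1820 to 3290 against 988 to 1720 in MHCII+CD11c-. The MHCII-side sum was 66.4 to 119 CPM against 299 to 673 in LYVE1+CX3CR1+, and 12200 to 13800 against 18200 to 19900 in MHCII+CD11c-. None of these ranges overlapped. In MHCII+CD11c+ the osteoclast sum was 26.4 to 33.7 CPM after IC against 6.59 to 27.5, and the neutrophil sum 0.550 to 1.76 against 61.5 to 229. The macrophage sum there was 2450 to 3110 CPM against 1430 to 2240, and its members Csf1r (1180 and 1130 against 670 to 714 CPM) and Cd68 (437 and 435 against 255 to 355) did not overlap. Timd4, a marker of resident macrophages and 1 of the 5 LYVE1-side markers, rose 4.44-fold in MHCII+CD11c+ (adjusted p = 0.0113). The LYVE1-side sum overlapped there, at 266 to 559 CPM after IC against 57.5 to 581 in controls. The other members of that list, Lyve1, Cx3cr1, Folr2 and Vsig4, overlapped in this subset as well and were not called. The part of all these markers in the receptor changes was not tested.

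Il2rg was higher after IC in each subset. In LYVE1+CX3CR1+ it went from 8.98, 14.3 and 14.8 CPM to 38.3, 24.9 and 27.4 (1.25 ± 0.34, adjusted p = 0.0691). In MHCII+CD11c- it went from 18.3, 18.0 and 16.7 to 41.2, 28.2 and 64.7 (1.33 ± 0.33, adjusted p = 0.0642). In MHCII+CD11c+ it went from 26.8, 37.0 and 30.6 to 38.5 and 45.8 (0.42 ± 0.36, adjusted p = 1). Every IC library exceeded every control library of its own subset, and the average rise was 2-fold (1 ± 0.20, adjusted p = 0.00422, and between 9.13e-05 and 0.0266 over the 24 alternatives, all of which kept the call).

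Tnfrsf11a rose in MHCII+CD11c+ from 63.0, 72.4 and 45.8 to 122 and 129 CPM, a 2.07-fold change (1.05 ± 0.21, adjusted p = 0.0290), in the libraries whose macrophage markers were also higher. In MHCII+CD11c- it stood at 161, 132 and 109 CPM before and 208, 203 and 205 after (0.61 ± 0.19, adjusted p = 0.171), also without overlap. In LYVE1+CX3CR1+ the IC libraries had 188, 173 and 155 CPM, overlapping the controls at 182, 185 and 225 (-0.20 ± 0.19, adjusted p = 0.706). The average rise was 1.4-fold (0.49 ± 0.11, adjusted p = 0.0157) and was lost without either MHCII+CD11c+ IC library (adjusted p = 0.0542 and 0.0705). The rise within MHCII+CD11c+ was lost without either of these libraries (0.395 and 0.329), MHCII+CD11c+ control replicate 1 (0.106) or 3 (0.192), or LYVE1+CX3CR1+ control replicate 1 (0.0538), and with surrogate variables (0.08). It also shares its control libraries with the difference between control subsets given above. The difference of the response between LYVE1+CX3CR1+ and MHCII+CD11c+ was -1.25 ± 0.28, with an adjusted p of 0.133.

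No receptor passed the test of a difference in IC response between any 2 subsets (0 of 49 in each, against 0.0262%, 0.0327% and 0% of all genes, and 5, 6 and 3 receptors at an unadjusted p under 0.05). DESeq2 called 1 for LYVE1+CX3CR1+ against MHCII+CD11c+, Tnfrsf11a.

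Several receptors moved by amounts that did not pass the threshold on average over the subsets. Il4ra had 448, 321 and 305 CPM after IC in LYVE1+CX3CR1+, 559, 472 and 530 in MHCII+CD11c-, with 346 and 267 for MHCII+CD11c+ (average 0.44 ± 0.12, adjusted p = 0.0510). It was called in 5 alternatives, among them DESeq2 (adjusted p = 0.0445). Tnfrsf17 (BCMA), a receptor for BAFF and APRIL known from plasma cells, had 8.50, 1.62 and 2.93 CPM in LYVE1+CX3CR1+ controls and no count after IC, at least 14.1-fold lower (81 counts to 0, adjusted p = 0.0652). In MHCII+CD11c- it went from 10.7, 6.19 and 12.4 CPM to 1.11, 2.68 and 3.30, without overlap (adjusted p = 0.577). No MHCII+CD11c+ library held more than 1.28 CPM. The 4 B cell markers summed to 0 to 1.53 CPM in LYVE1+CX3CR1+ controls and had no count there after IC. In MHCII+CD11c- they summed to 6.72 to 33.7 CPM in controls and 0 to 12.8 after IC, and their part was not tested. Tnfrsf25 (DR3) stood at 14.0 to 46.8 CPM in MHCII+CD11c- controls and 5.23 to 11.7 after IC, and its average change was -2.01 ± 0.58 (adjusted p = 0.0695). Its values in MHCII+CD11c+ controls, 0.638, 2.60 and 16.3, spanned a wide range.

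Tnfrsf1b, the TNF receptor without a death domain, had 147, 212 and 233 CPM in MHCII+CD11c+ controls and 321 in both IC libraries (0.70 ± 0.23, adjusted p = 0.468). Osmr was close to absent in MHCII+CD11c+ controls, with 1 count over the 3 libraries, and had 29 over the 2 IC libraries, a ratio of 30.1 (95% exact counting interval 4.99 to 1230, adjusted p of the fit 0.820). In MHCII+CD11c- it had 0, 1.06 and 0 CPM before and 1.11, 5.15 and 2.20 after IC. Neither passed the test over libraries.

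**Figure D4:**
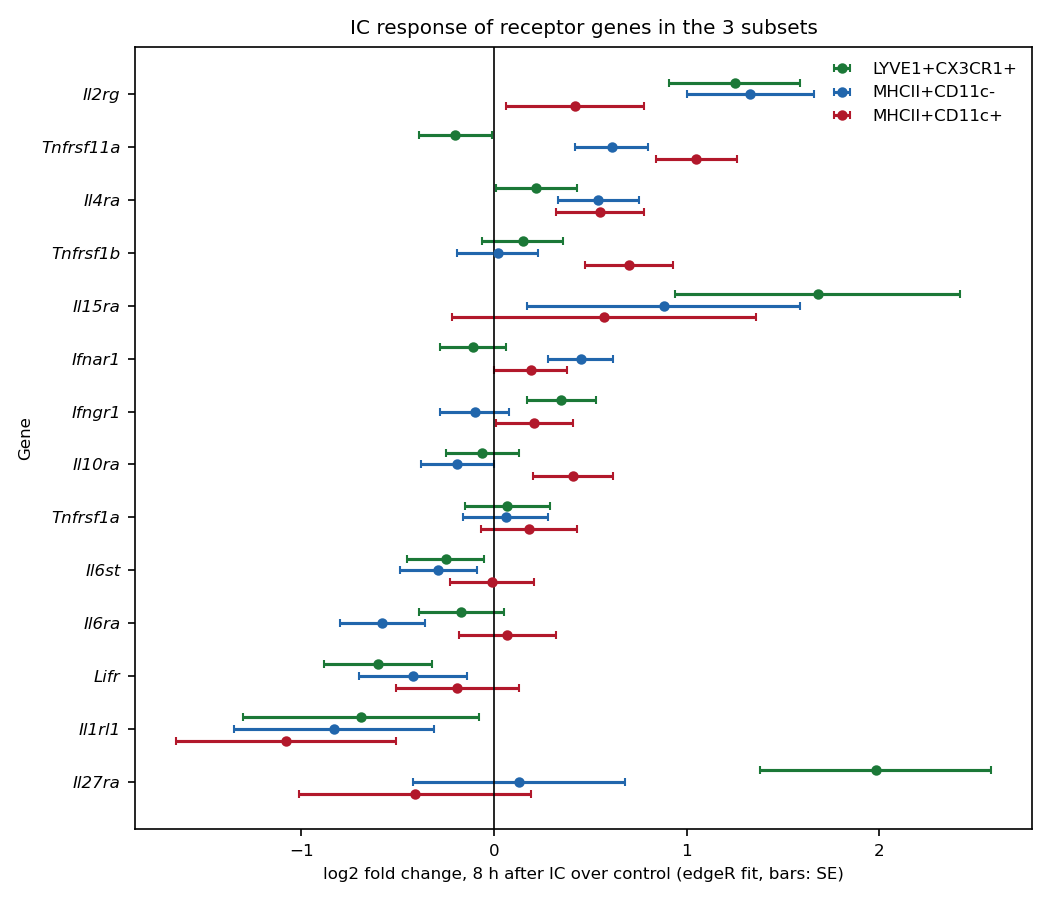
Fitted log2 change after IC with its standard error (bars) for receptors in each subset (colours), where 0 is no change. Il2rg lies above 0 in each subset, at 1.25, 1.33 and 0.42, and Tnfrsf11a reaches 1.05 in MHCII+CD11c+ but -0.20 in LYVE1+CX3CR1+.

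Genes that act with these receptors were read from lists of ligands, antagonists, other receptors and signalling components. The shares of these lists that passed are to be read beside the 15.2% of all genes tested that passed for controls of LYVE1+CX3CR1+ against those of MHCII+CD11c+ (7.4% lower), and the shares of Janus kinase and STAT genes and of adaptors lie near the first of these values. In that comparison 4 of 19 ligand genes tested passed, 1 higher (Tnfsf12) and 3 lower (Il1b, Il6 and Tnfsf14). Il1b had 12.4, 66.8 and 14.7 CPM in LYVE1+CX3CR1+, 115, 365 and 114 in MHCII+CD11c-, with 564, 763 and 660 for MHCII+CD11c+ (-4.44 ± 0.80 between the first and the last, adjusted p = 0.00237), the same order of subsets as Il1r1 and Il1r2. Il1rn, the natural IL-1 receptor antagonist, was also lower in LYVE1+CX3CR1+, at 15.4, 37.3 and 28.0 CPM against 207, 148 and 299 (-3.02 ± 0.46, adjusted p = 0.000318). Of 13 receptors that the symbol rule did not take, 8 passed, 2 higher (Cd40, Il21r) and 6 lower, among them Il7r (-6.92 ± 0.89, adjusted p = 8.36e-06) and Csf2rb (-3.00 ± 0.39, adjusted p = 5.11e-05).

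Of 11 Janus kinase and STAT genes 2 passed, both lower in LYVE1+CX3CR1+, Jak2 (-1.66 ± 0.22, adjusted p = 1.14e-05) and Tyk2 (-1.42 ± 0.21, adjusted p = 3.39e-05). Of 11 feedback inhibitors 3 passed, all lower: Cish, Ptpn2 and Socs6. Of 21 adaptor genes 4 passed, all lower: Birc3, Map3k14, Myd88 and Traf1. Traf1, an adaptor of TNF receptors, had the largest difference of these (-5.77 ± 0.59, adjusted p = 1.23e-05). Cish, a feedback inhibitor that STAT factors induce, was the only gene of the signalling lists that fell after IC on average over the subsets (-2.29 ± 0.46, adjusted p = 0.00475). The largest fitted change was in LYVE1+CX3CR1+ (-4.20 ± 1.08, adjusted p = 0.0583), at low counts, from 2.52, 1.62 and 3.21 to 0, 0.315 and 0 CPM. Cish went from 54.7, 59.3 and 70.7 to 22 and 32.6 CPM in MHCII+CD11c+ (-1.17 ± 0.60). In MHCII+CD11c- it went from 11.9, 14.0 and 1.67 to 2.00, 5.77 and 1.93 (-1.51 ± 0.58, adjusted p = 0.32). No single subset passed the threshold. The MHCII+CD11c- ranges overlapped through control replicate 3.

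In 11 of the 52 receptor genes an exon overlaps another gene of the table, mostly on the opposite strand, among them Il4ra, Il6ra, Il27ra and Tnfrsf18. The use of strand in counting was not given in the sources used here, so their counts may include reads of the partner. Exons of Il2rg, Il10rb and Ifnar2 also overlap a same-strand gene of the annotation that is absent from the count table, and Il1rap an opposite-strand one.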

How the data were processed

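Bulk RNA-seq counts of 17 libraries in 6 groups were analysed. Per the study's methods the authors sorted the macrophages, built stranded total RNA libraries with a low-input kit, trimmed reads with Trim Galore, aligned them to mm10 with HISAT2 and used featureCounts to count reads per gene. Versions, annotation and strand setting were not given in the sources used here. The deposited values were raw counts per gene, as 1 combined table and 1 table per library, identical in all 17 libraries. The combined table had 1 further sample column that matched no sample used here and held only zeros (sum 0), and it was not used.

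Counts were tested with edgeR 4.0.16 (R 4.3.3, TMM scaling, robust quasi-likelihood F test) in 1 model with 6 groups and 11 residual degrees of freedom, after filterByExpr with a minimum count of 10. Of 22859 genes 15272 were tested and p-values were adjusted over all of them by Benjamini-Hochberg, with calls at an adjusted p under 0.05. The SE is the log2 change divided by the square root of F. A fold against a group with no count is a bound against 3 counts over the group, and one against 1 to 3 counts is a ratio with an exact 95% interval. The biological coefficient of variation was 45.1%. No pair of replicates differed by less than sampling noise (lowest chi-square per degree of freedom 6.77). Steps were tested on simulated data.

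The receptor genes, gene lists and tests were chosen with earlier results of these data known, so no list here is independent evidence. The text names receptors called in a comparison, then those with the smallest p or the highest level, and any other named gene was chosen after its values were seen. Tnfrsf26 was grouped with Tnfrsf22 and Tnfrsf23. Positions, lengths and neighbours are from GENCODE M21 on GRCm38, which held 97.5% of the symbols. Alternatives were DESeq2 1.42.0, RLE size factors, no filter, equal depth, a length correction, surrogate variables (sva 3.50.0, 5 variables), the replicate number as a block, and leaving out each library (17 fits). The study's methods used DESeq2 and sva without naming the batch.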

Additional observations from a re-analysis of the deposited data

Results flagged for a closer look

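The response to IC appeared to differ between LYVE1+CX3CR1+ and MHCII+CD11c+ for Il1r2 and for Il27ra, because all libraries of one subset moved one way and all of the other the opposite way. Il1r2 went from 0.945, 0.541 and 0.837 CPM to no count in LYVE1+CX3CR1+, at least 2.44-fold lower (14 counts to 0), and from 20.2, 23 and 18.5 to 48.0 and 32.8 CPM in MHCII+CD11c+. The fitted difference of the responses was -5.88 ± 1.41, with an adjusted p of 0.171 in edgeR, and its size rests on the 0 counts. The MHCII-side markers were lower in the same LYVE1+CX3CR1+ IC libraries, at a sum of 66.4 to 119 CPM against 299 to 673 in controls, with Cd74 4.02-fold lower (adjusted p = 0.00258) and H2-Eb1 at no count (adjusted p = 5.85e-06), and their part was not tested. Il27ra went from 1.57, 0.541 and 3.07 to 6.73, 3.15 and 12 CPM in LYVE1+CX3CR1+ and from 31.1, 23.6 and 31.0 to 20.4 and 22.5 in MHCII+CD11c+, a difference of 2.38 ± 0.85 with an adjusted p of 0.426. Neither passed the test of the difference.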

How the results depend on the processing

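In all, 43 receptor calls were made over the comparisons, 20 of them were kept in all 24 alternatives and 0 reversed. Rescaling by RLE size factors and the length correction left every count of receptors called within 1.5 times. Without the filter on low counts, the average IC response had 4 calls in place of 2. At equal depth it had 5, and LYVE1+CX3CR1+ against MHCII+CD11c- controls had 1 in place of 2. DESeq2 called 3 after IC in LYVE1+CX3CR1+ and 1 in MHCII+CD11c- (0 in edgeR), 6 on average, 6 for controls of LYVE1+CX3CR1+ against MHCII+CD11c-, 10 for these subsets after IC and 6 for the MHCII+ subsets after IC (6 and 3 in edgeR), and 1 in place of 0 for the response difference between LYVE1+CX3CR1+ and MHCII+CD11c+. With surrogate variables the counts were 4 (LYVE1+CX3CR1+), 2 (MHCII+CD11c-) and 0 (MHCII+CD11c+) for the IC response, 5 on average, 4 and 6 for controls of LYVE1+CX3CR1+ and of MHCII+CD11c+ against MHCII+CD11c-, and 10, 13 and 11 for the 3 comparisons after IC. The cause was not tested.

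Leaving out 1 library gave 0 to 1 calls for the IC response in each subset, 1 to 4 on average, 1 to 4, 7 to 14 and 4 to 11 for the control comparisons (LYVE1+CX3CR1+ against MHCII+CD11c-, against MHCII+CD11c+, and MHCII+CD11c+ against MHCII+CD11c-), 3 to 10, 5 to 9 and 1 to 6 for the same after IC, and 0, 0 to 1 and 0 for the response differences. The 7 came without LYVE1+CX3CR1+ control replicate 1, and the 4 of the third control comparison without MHCII+CD11c- control replicate 1.

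Within a treatment, deviations of same-numbered libraries had correlations of 0.00129 to 0.286, all positive, against -0.15 to 0.0672 for libraries of other numbers. Deviations were taken from the mean of each group, so those within a group balance each other. The ranges for same and other numbers are for that reason not independent. Between control and IC the same-number correlations were -0.153 to 0.0817. The labels do not say what a number shares, so the main fit did not use the numbers as pairs. A shared replicate effect within a treatment is therefore not excluded. With the replicate block, the control comparisons had 3, 15 and 9 calls and the average response 3.

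Depth limits what can be said of the LYVE1+CX3CR1+ IC libraries, where 25 to 37 of 52 receptors had more than 3 counts. A count of 0 there allows a low level.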

Other observations

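Il2ra, Il2rb and Tnfrsf9 were read at low counts. Il2ra, the alpha chain of the IL-2 receptor, had 75 counts over the 2 MHCII+CD11c+ IC libraries and 1 over the 3 MHCII+CD11c- IC libraries, a ratio of 79.5 (95% exact counting interval 13.8 to 3180, counting error only). It also had 12 counts in LYVE1+CX3CR1+ IC replicate 3, at 4.98 CPM against 4.99 in MHCII+CD11c+ IC replicate 1, and none in the other LYVE1+CX3CR1+ IC libraries. Il2rb, the beta chain, had 11 counts in MHCII+CD11c+ after IC, 9 in its controls and none in any library of the other groups. Tnfrsf9 (4-1BB) had 1.76 ± 1.83 CPM (SD, n = 3) in MHCII+CD11c+ controls and 2.31 ± 0.678 (n = 2) after IC, and no count in LYVE1+CX3CR1+ or MHCII+CD11c- after IC. These genes were picked after their values were seen and are given as values.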
